A study of Mus musculus with 12 samples.

Results

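A set of angiotensin and ion channel genes, named after the *zona glomerulosa*, was followed in RNA-seq of the mouse adrenal cortex. These 9 genes, out of the 49585 in the count files, were the angiotensin II receptors *Agtr1a* and *Agtr1b*, the endocytic adaptor *Dab2*, the potassium channels *Kcnk3*, *Kcnk9*, and *Kcnj5*, the calcium channels *Cacna1h* and *Cacna1d*, and the calcium pump *Atp2b3*. They were chosen by symbol, and each symbol matched 1 Ensembl gene. The 12 mice fell into 3 groups of 4, with 1 library per mouse, after 20 weeks of feeding that began at 6 weeks of age. The first group received a low-fat diet (LFD, called a normal diet in the labels), the second a high-fat diet (HFD), and the third the HFD with icosapent ethyl, the purified ethyl ester of eicosapentaenoic acid, mixed into it for the last 10 weeks. The labels give the genotype of all 12 mice as Fads2-/-, whereas the study's methods describe male wild-type C57BL/6J mice. *Fads2* was present in every library, at 452 to 2181 CPM (counts scaled to a library of 1000000 with TMM normalization, as are all CPM here), and no comparison below rests on genotype. The replicate numbers of the labels name the mice (2, 5, 6, and 7 on the LFD, and 1 to 4 in both other groups). Whether the mice of a group were littermates or cage mates is not given in the sources used here.

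In the outermost zone of the adrenal cortex, angiotensin II and extracellular potassium control aldosterone production. Angiotensin II binds the type 1 receptor, which is encoded by a pair of genes in rodents, and acts through the Gq protein on calcium stores and on the membrane potential. Leak potassium channels of the TASK family, made by *Kcnk3* and *Kcnk9*, hold the cell membrane at a negative potential, and the inward rectifier made by *Kcnj5* adds to the potassium conductance. When the membrane depolarizes, calcium enters through T-type (*Cacna1h*) and L-type (*Cacna1d*) channels, and the plasma membrane pump made by *Atp2b3* removes it. Altered forms of several of these genes occur in human aldosterone-producing adenomas.

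Depth allowed all 9 genes to be measured in every mouse. The libraries held 34785979 to 67295963 gene counts (median 45467122.5), and the scarcest gene, *Kcnj5*, had from 30 to 182 counts. The libraries were of whole adrenal cortex, so that fewer cells of a type and less RNA per cell cannot be told apart. All 8 *zona glomerulosa* markers examined were measurable, and aldosterone synthase (*Cyp11b2*) lay between 253 and 514 CPM. Markers of chromaffin cells, which belong to the medulla, were also abundant. Their summed level over 12 genes, led by *Chgb*, ranged from 6277 to 22130 CPM in LFD mice, from 3034 to 9813 CPM in HFD mice, and from 5408 to 10710 CPM in icosapent ethyl–treated mice, with no marker at 0. LFD replicate 2 had the lowest *Kcnk3*, *Kcnk9*, and *Atp2b3* of its group, the highest *Agtr1b*, and the highest summed markers of capsule and stroma (726 CPM, against 410.2 to 576 CPM in the other LFD mice), so the values that moved most without it are given beside the results.

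Reads of *Agtr1a* and *Agtr1b* had to be told apart from near-identical sequence. The coding sequences of both genes have 1077 bases in GENCODE M21, and 978 of them (90.8%) were the same. Among the 1003 stretches of 75 bases, the read length the study states, none was identical in both genes, 103 differed at 1 or 2 bases, the median difference was 6 bases, and the largest was 18. Only coding bases were compared in this way, out of 2786 exon bases of *Agtr1a* and 2147 of *Agtr1b*. The most alike and the most different stretches are shown as the ends of the range of differences. They lie in the coding parts of GRCm38 chr13:30381013-30381087 (plus strand) for *Agtr1a* with chr3:20316307-20316381 (minus strand) for *Agtr1b*, and of chr13:30381933-30382007 with chr3:20315387-20315461. Capitals mark the bases that differ.
Agtr1a most alike: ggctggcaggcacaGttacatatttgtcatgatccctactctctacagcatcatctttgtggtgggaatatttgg
Agtr1b most alike: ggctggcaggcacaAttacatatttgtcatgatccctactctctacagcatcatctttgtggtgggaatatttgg
Agtr1a most different: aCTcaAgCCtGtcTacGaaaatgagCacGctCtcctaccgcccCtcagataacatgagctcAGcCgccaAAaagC
Agtr1b most different: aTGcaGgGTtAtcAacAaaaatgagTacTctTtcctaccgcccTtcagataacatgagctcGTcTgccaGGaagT
No transcript of any of the 9 genes shared a run of 75 bases with another gene. The other pairs of one kind were less alike, with 63.2% of coding bases identical between *Kcnk3* and *Kcnk9* and 44.6% between *Cacna1h* and *Cacna1d*, both over the longer coding sequence.

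The 9 genes spanned a wide range of levels, and a single potassium channel stood above the rest. Levels of different genes are compared here as CPM per kilobase of exon, averaged over the 12 mice. *Kcnk3* was highest, at 572 CPM per kilobase, and ranked 51st of the 16232 genes ordered in this way. *Agtr1a* followed at 89.7, *Dab2* at 41.6, *Cacna1h* at 26.9, *Atp2b3* at 20.0, *Kcnk9* at 9.08, *Agtr1b* at 8.23, *Cacna1d* at 1.004, and *Kcnj5* at 0.342 CPM per kilobase. The ranges over the mice overlapped between neighbours for *Dab2* and *Cacna1h*, for *Cacna1h* and *Atp2b3*, for *Kcnk9* and *Agtr1b*, and for *Cacna1d* and *Kcnj5*. The order of these neighbours within each mouse was not compared. *Kcnk3* exceeded *Agtr1a* by 6.38-fold without overlap, and *Agtr1b* exceeded *Cacna1d* by 8.19-fold without overlap. Within each pair of one kind, a single gene supplied most of the RNA.

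**Figure D1:**
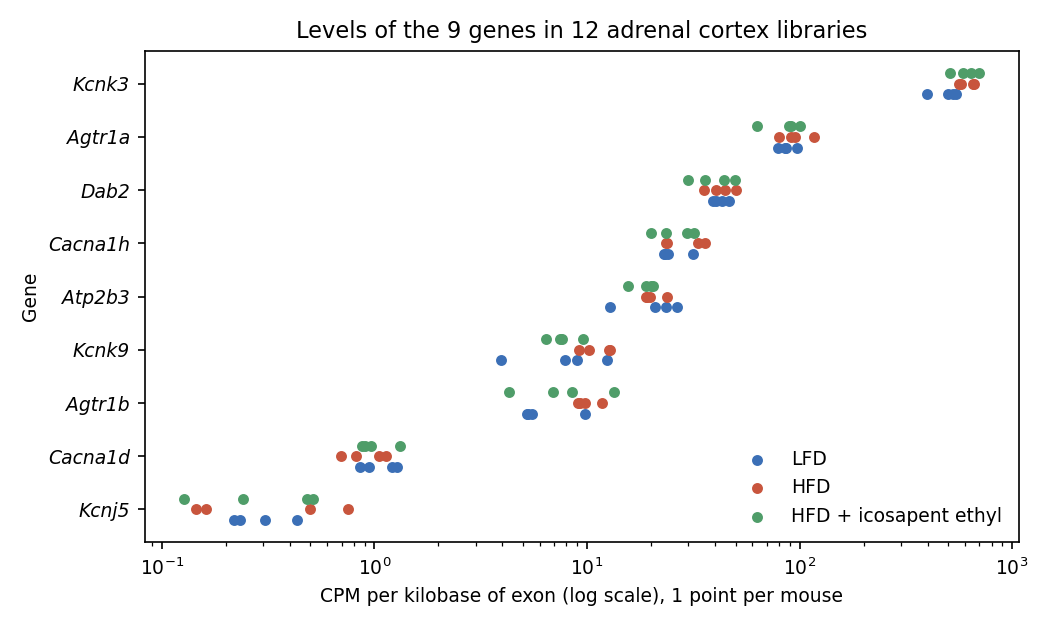
Level of each gene in CPM per kilobase of exon on a log axis, with 1 point per mouse and the 3 groups in colours. *Kcnk3* lies between 396 and 699 CPM per kilobase in all 12 mice, and *Kcnj5* between 0.128 and 0.752.

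None of the 9 genes passed the threshold between any 2 groups, and the receptor and leak channel genes held the differences that came nearest. With edgeR's quasi-likelihood test over all genes and an adjusted p below 0.05 (Benjamini-Hochberg), 0 of 9 passed between HFD and LFD mice, where 1.45% of the 15909 genes tested did. The counts were 0 of 9 between icosapent ethyl–treated and HFD mice and 0 of 9 between icosapent ethyl–treated and LFD mice, where 0.0% of 15913 and 0.0% of 15935 genes passed. DESeq2 also called 0 of 9 in each comparison, against 12.7%, 0.0377%, and 2.96% of all genes. At an unadjusted p below 0.05, 2 genes passed between HFD and LFD mice (*Agtr1b* and *Kcnk3*, against 24.8% of all genes), 1 between icosapent ethyl–treated and HFD mice (*Kcnk9*, against 1.39%), and 1 between icosapent ethyl–treated and LFD mice (*Kcnk3*, against 14.0%). The groups did not overlap for 1 gene between HFD and LFD mice (*Kcnk3*, against 13.5% of all genes) and for 0 genes in both comparisons of icosapent ethyl–treated mice (against 1.14% for HFD and 7.73% for LFD mice). The comparisons share mice, since each group enters 2 of them. The text below gives each gene's values in the order of the replicate numbers.

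**Figure D2:**
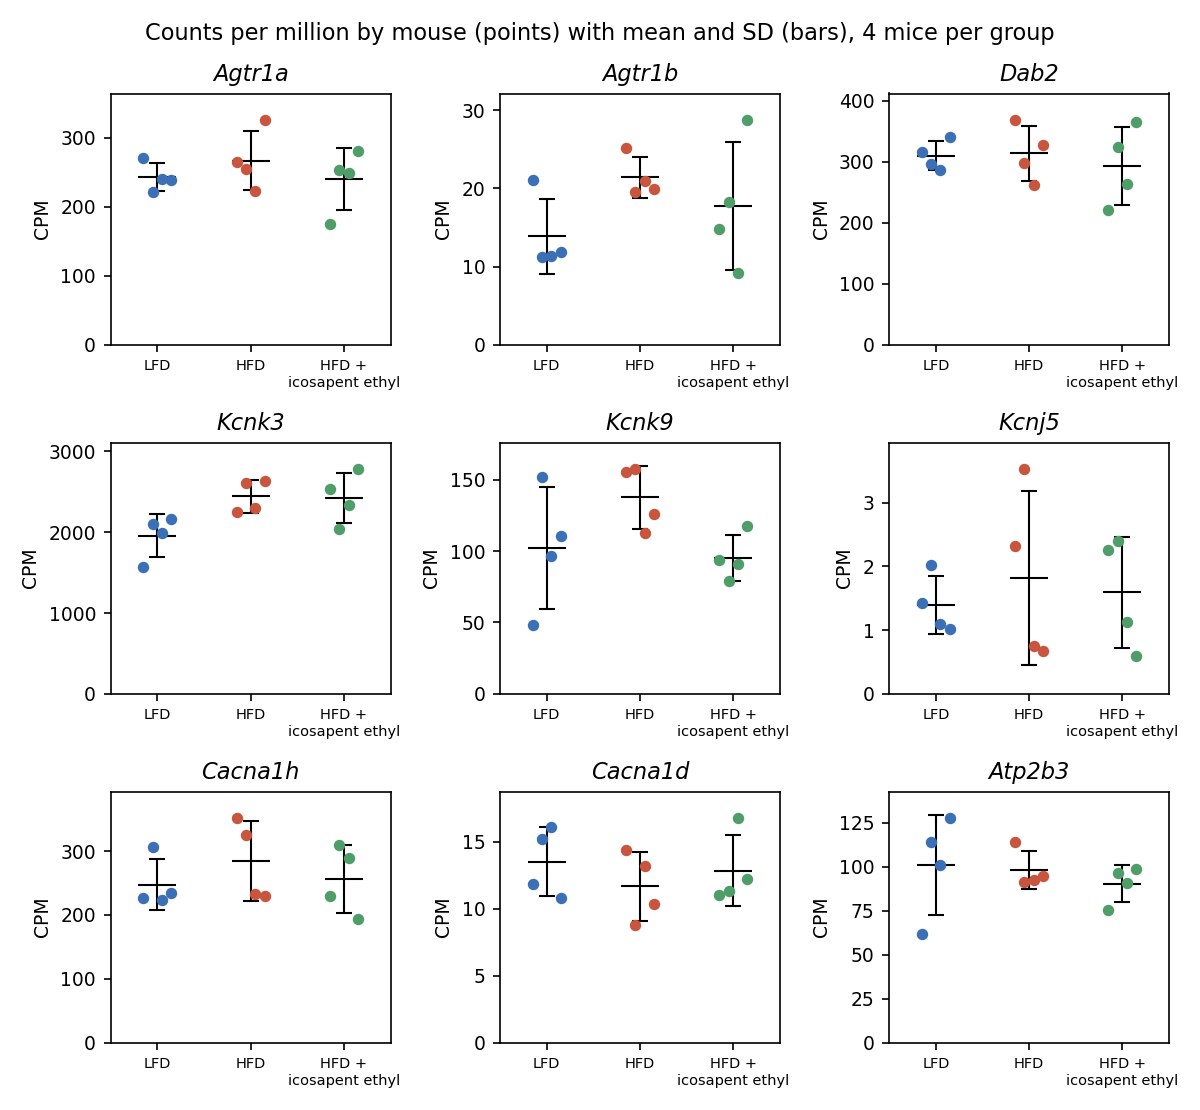
CPM of each gene by group, with 1 point per mouse and the mean and SD (4 mice per group) as bars, on axes that start at 0. The HFD and LFD points separate fully only for *Kcnk3*, and every other panel shows overlapping groups.

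*Agtr1a* (chr13:30336441-30382867, plus strand), the more abundant angiotensin receptor gene, was at 271, 221, 240.1, and 239 CPM in LFD mice, 265, 255, 222, and 325 CPM in HFD mice, and 176, 253, 249, and 281 CPM in icosapent ethyl–treated mice. The highest value belonged to HFD replicate 4 and the lowest to icosapent ethyl replicate 1, and all 3 groups overlapped. The log2 fold change was 0.12 (standard error (SE) 0.12, 95% interval -0.15 to 0.40) for HFD versus LFD mice, -0.15 (SE 0.16, -0.52 to 0.21) for icosapent ethyl–treated versus HFD mice, and -0.017 (SE 0.14, -0.33 to 0.30) for icosapent ethyl–treated versus LFD mice.

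*Agtr1b* (chr3:20314473-20367177, minus strand), the scarcer receptor gene, had 21.05 CPM in LFD replicate 2 but 11.2, 11.3, and 11.9 CPM in the other LFD mice. HFD mice had 25.2, 19.6, 20.9, and 19.9 CPM. Icosapent ethyl–treated mice had 14.8, 18.2, 9.24, and 28.7 CPM, the widest spread of the 3 groups. All 4 HFD mice lay above 3 of the LFD mice, and LFD replicate 2 lay within the HFD range. The mean was 21.4 ± 2.60 CPM (SD, n = 4) in HFD and 13.8 ± 4.81 CPM in LFD mice, a log2 fold change of 0.61 (SE 0.23, 95% interval 0.096 to 1.13) with an adjusted p of 0.151 by edgeR. Without LFD replicate 2, the log2 fold change was 0.90 and the adjusted p 0.0435, and over the other settings tried the adjusted p ranged from 0.0569 to 0.317. Against HFD mice, the icosapent ethyl–treated mean of 17.7 ± 8.19 CPM gave -0.27 (SE 0.30, -0.95 to 0.41), and against LFD mice it gave 0.36 (SE 0.34, -0.41 to 1.13). Both rested on single mice. The first was -0.058 without icosapent ethyl replicate 3 and -0.61 without icosapent ethyl replicate 4, and the second was 0.022 without icosapent ethyl replicate 4, 0.58 without icosapent ethyl replicate 3, and 0.63 without LFD replicate 2.

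*Dab2* (chr15:6299788-6440712, plus strand) encodes a clathrin adaptor that marks the *zona glomerulosa* in rodents and is also made by macrophages. It was at 316, 295.5, 287, and 340.5 CPM in LFD mice, 367.5, 298, 261, and 328 CPM in HFD mice, and 220.4, 325, 263, and 365 CPM in icosapent ethyl–treated mice. The groups overlapped throughout, and the LFD mice were the most alike (coefficient of variation 7.73%, against 14.3% and 21.9%). The log2 fold change was 0.010 (SE 0.11, 95% interval -0.24 to 0.26) for HFD versus LFD mice, -0.097 (SE 0.17, -0.48 to 0.28) for icosapent ethyl–treated versus HFD mice, and -0.078 (SE 0.15, -0.41 to 0.26) for icosapent ethyl–treated versus LFD mice. The summed macrophage markers ranged from 723 to 1085 CPM in LFD, from 506 to 612 CPM in HFD, and from 555 to 697 CPM in icosapent ethyl–treated mice. Over all mice, log2 CPM of *Dab2* had a Pearson's r of 0.0082 with the mean log2 CPM of these markers (permutation p = 0.98). Spearman's rho was -0.182 (permutation p = 0.573), and r was -0.126 for deviations from the group means. The part of macrophage RNA in the *Dab2* values was not tested.

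*Kcnk3* (chr5:30588170-30625271, plus strand), which encodes TASK-1, was at 1573, 2097, 1985, and 2168 CPM in LFD mice, 2245, 2612, 2295, and 2633 CPM in HFD mice, and 2541, 2036, 2342, and 2778 CPM in icosapent ethyl–treated mice. Every HFD mouse was above every LFD mouse, as was the case in the same direction for 7.71% of the 15909 genes. Of the icosapent ethyl–treated mice, 3 were above all LFD mice and replicate 2 was within the LFD range. The mean was 2446 ± 205 CPM (SD, n = 4) in HFD and 1956 ± 266 CPM in LFD mice, a log2 fold change of 0.32 (SE 0.11, 95% interval 0.060 to 0.57) with an adjusted p of 0.142 by edgeR (0.23 and 0.241 without LFD replicate 2). Icosapent ethyl–treated mice (2424 ± 314.5 CPM) gave 0.31 against LFD mice (SE 0.13, 0.016 to 0.60, adjusted p 0.343) and -0.013 against HFD mice (SE 0.12, -0.27 to 0.25). An antisense gene, *Gm9899*, overlaps *Kcnk3* and had 10083 counts over all libraries, and the authors counted by strand.

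*Kcnk9* (chr15:72501089-72546340, minus strand), which encodes TASK-3, was at 48.5, 152, 96.8, and 110.5 CPM in LFD mice. HFD mice had 155, 157, 113, and 126 CPM, and icosapent ethyl–treated mice had 93.5, 79.1, 91.3, and 118 CPM. Of the icosapent ethyl–treated mice, 3 were below all HFD mice, and replicate 4 lay within the HFD range. The LFD mice held both the lowest value of all 12 (replicate 2) and one near the top (replicate 5), so that they overlapped both other groups. The mean was 95.4 ± 16.1 CPM (SD, n = 4) in icosapent ethyl–treated and 138 ± 22.1 CPM in HFD mice, and the log2 fold change was -0.53 (SE 0.15, 95% interval -0.87 to -0.19). Its unadjusted p of 0.00638 was the 16th smallest of the 15913 genes in edgeR, and the adjusted p was 0.9997, as was the smallest over all genes. Here 1.39% of all genes had an unadjusted p below 0.05, a smaller share than no change at all would give on average. The rank is therefore a description only. Leaving out each of these 8 mice in turn gave log2 fold changes of -0.65 to -0.45. HFD versus LFD mice gave 0.43 (SE 0.29, -0.22 to 1.08, adjusted p 0.383), which was 0.20 without LFD replicate 2 and 0.69 without LFD replicate 5.

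*Kcnj5* (chr9:32314707-32344350, minus strand), the gene of an inward rectifier, was near the lower limit of what these libraries measure. It was at 1.43, 2.01, 1.09, and 1.02 CPM in LFD mice, 2.32, 3.52, 0.754, and 0.678 CPM in HFD mice, and 2.255, 2.40, 1.13, and 0.598 CPM in icosapent ethyl–treated mice. HFD mice fell into a high pair (replicates 1 and 2) and a low pair (replicates 3 and 4), and the same numbers were high and low among the icosapent ethyl–treated mice. The coefficient of variation was 54.8% in icosapent ethyl–treated and 32.6% in LFD mice, and larger still in HFD mice (1.82 ± 1.36 CPM, SD, n = 4). The log2 fold change of 0.38 for HFD versus LFD mice (SE 0.53, 95% interval -0.81 to 1.58) left its direction undetermined. The values were -0.21 (SE 0.62, -1.61 to 1.19) for icosapent ethyl–treated versus HFD mice and 0.18 (SE 0.43, -0.80 to 1.16) versus LFD mice. Without HFD replicate 2, the HFD versus LFD value was -0.15.

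*Cacna1h* (chr17:25374285-25433783, minus strand), the T-type channel gene, was at 227, 306, 224, and 234 CPM in LFD mice, 351, 325, 232, and 230.2 CPM in HFD mice, and 229, 310.1, 289, and 194 CPM in icosapent ethyl–treated mice. HFD replicates 1 and 2 were above all LFD mice, and replicates 3 and 4 lay among them. Its log2 fold change was 0.19 (SE 0.17, 95% interval -0.19 to 0.58) for HFD versus LFD mice, -0.15 (SE 0.19, -0.59 to 0.28) for icosapent ethyl–treated versus HFD mice, and 0.047 (SE 0.16, -0.32 to 0.42) for icosapent ethyl–treated versus LFD mice.

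*Cacna1d* (chr14:30039939-30491455, minus strand), the L-type channel gene, was at 11.8, 15.2, 16.1, and 10.8 CPM in LFD mice, 14.4, 8.75, 13.2, and 10.4 CPM in HFD mice, and 11.0, 11.4, 16.7, and 12.2 CPM in icosapent ethyl–treated mice. No group stood apart, and the extremes were HFD replicate 2 and icosapent ethyl replicate 3. Its log2 fold change was the only one above 0 for icosapent ethyl–treated versus HFD mice, at 0.14 (SE 0.20, 95% interval -0.33 to 0.60). The values were -0.22 (SE 0.20, -0.68 to 0.24) for HFD versus LFD mice and -0.073 (SE 0.19, -0.50 to 0.35) for icosapent ethyl–treated versus LFD mice.

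*Atp2b3* (chrX:73503086-73571005, plus strand), the calcium pump gene, was at 62.0, 114, 100.8, and 127.5 CPM in LFD mice, 114, 91.3, 92.3, and 94.95 CPM in HFD mice, and 75.4, 96.4, 91.1, and 99.03 CPM in icosapent ethyl–treated mice. The lowest and the highest of the 12 values were both in LFD mice (replicates 2 and 7). Its log2 fold change was -0.045 (SE 0.19, 95% interval -0.48 to 0.39) for HFD versus LFD mice, -0.12 (SE 0.11, -0.37 to 0.13) for icosapent ethyl–treated versus HFD mice, and -0.16 (SE 0.20, -0.61 to 0.29) for icosapent ethyl–treated versus LFD mice. Without LFD replicate 2, the comparisons with LFD mice gave -0.21 for HFD and -0.33 for icosapent ethyl–treated mice.

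Set side by side, 7 of the 9 log2 fold changes were above 0 for HFD versus LFD mice (6 when libraries were scaled by their totals alone, where *Dab2* was at -0.078), with a median of 0.19 beside -0.015 over all genes tested. Leaving out single mice gave from 6 (as without HFD replicate 1) to 8 above 0 (without LFD replicate 7). Between icosapent ethyl–treated and HFD mice, 8 of 9 were below 0 (7 with library totals, where *Kcnk3* was at 0.041), with a median of -0.15 beside 0.0040. Here, leaving out single mice gave from 6 (without HFD replicate 2) to 8 below 0. The median then ran from -0.23 (without HFD replicate 3) to -0.039 (without icosapent ethyl replicate 1). HFD mice enter both comparisons, so these directions are not separate observations. Between icosapent ethyl–treated and LFD mice, 4 were above and 5 below 0, with a median of -0.017 beside -0.0037. The plot of log2 fold changes shows which intervals leave out 0.

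**Figure D3:**
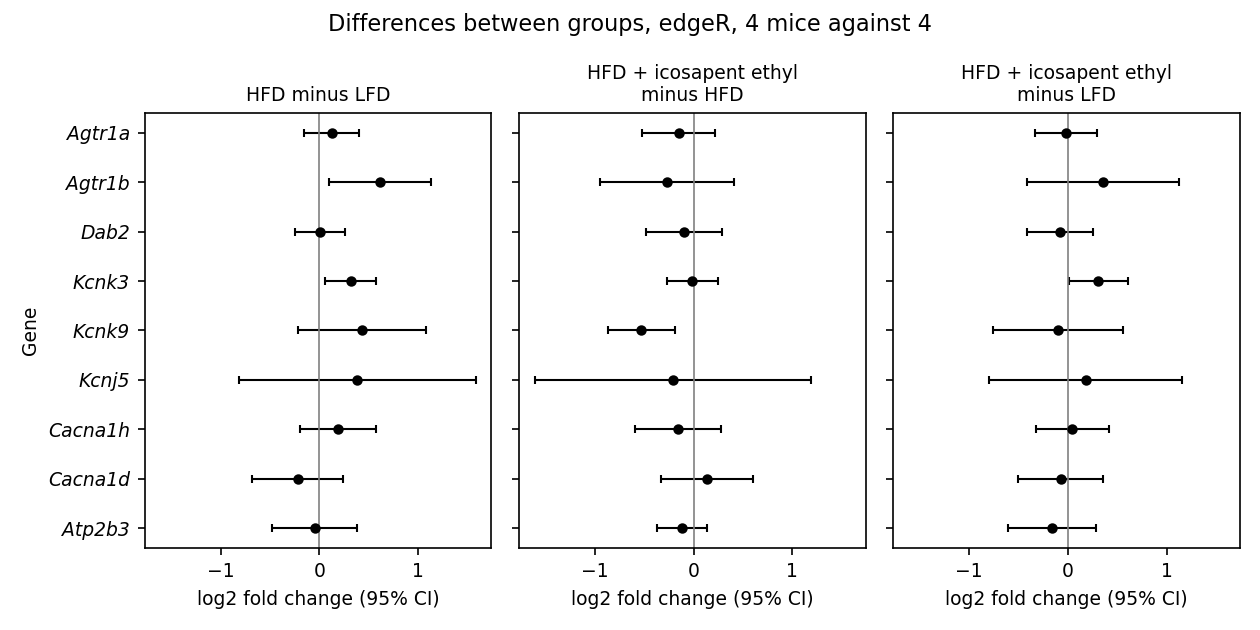
Log2 fold change of each gene in the 3 comparisons (points) with the 95% interval of edgeR's fit (bars), 4 mice against 4. The intervals leave out 0 for *Agtr1b* and *Kcnk3* in HFD minus LFD, for *Kcnk9* in icosapent ethyl–treated minus HFD, and for *Kcnk3* in icosapent ethyl–treated minus LFD mice, before adjustment over all genes.

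The balance within each pair of one kind was measured as a share of the counts of both genes, which does not depend on library scaling. *Kcnk9* made up 6.47%, 5.68%, 4.68%, and 4.56% of *Kcnk3* plus *Kcnk9* counts in HFD mice and 3.55%, 3.74%, 3.75%, and 4.06% in icosapent ethyl–treated mice. The groups did not overlap, and the nearest mice were HFD replicate 4 (95% Wilson interval 4.44% to 4.67%) and icosapent ethyl replicate 4 (3.97% to 4.15%), with intervals that cover counting error only. The difference was -1.57 percentage points (means 3.78% ± 0.212 and 5.35% ± 0.902, SD, n = 4), with p = 0.0286 in a 2-sided exact permutation test. That is the smallest value the 70 arrangements allow, and it was 0.257 after adjustment over the 9 share tests. With the same-numbered mice of these groups taken as pairs, the share was lower in 4 of 4 icosapent ethyl–treated mice, and exact sign flips of the pair differences, added after seeing the data, gave p = 0.125, the smallest that the 16 arrangements allow. LFD mice ranged from 2.99% (replicate 2) to 6.77% (replicate 5), across both other groups, and icosapent ethyl–treated mice differed from them by -1.04 points, or -1.65 points without LFD replicate 2 (adjusted exact permutation p = 0.129).

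*Agtr1b* made up 7.22%, 4.81%, 4.50%, and 4.72% of angiotensin type 1 receptor counts in LFD mice, 8.69%, 7.12%, 8.61%, and 5.78% in HFD mice, and 7.76%, 6.71%, 3.57%, and 9.26% in icosapent ethyl–treated mice. LFD replicate 2 lay among the HFD mice, while the other LFD mice were below all of them. HFD exceeded LFD mice by 2.24 percentage points (exact permutation p = 0.0857, adjusted 0.386), and by 2.88 points without LFD replicate 2 (adjusted 0.171). For icosapent ethyl–treated mice, the difference was -0.726 points from HFD (exact p = 0.657) and 1.51 points from LFD mice (exact p = 0.343). *Cacna1d* made up 5.21% ± 1.03 (SD, n = 4) of *Cacna1d* plus *Cacna1h* counts in LFD, 4.06% ± 1.14 in HFD, and 4.87% ± 1.05 in icosapent ethyl–treated mice, and the smallest exact p of its 3 comparisons was 0.229. In the pairs of icosapent ethyl–treated and HFD mice, it was higher in 4 of 4 icosapent ethyl–treated mice (exact sign-flip p = 0.125).

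**Figure D4:**
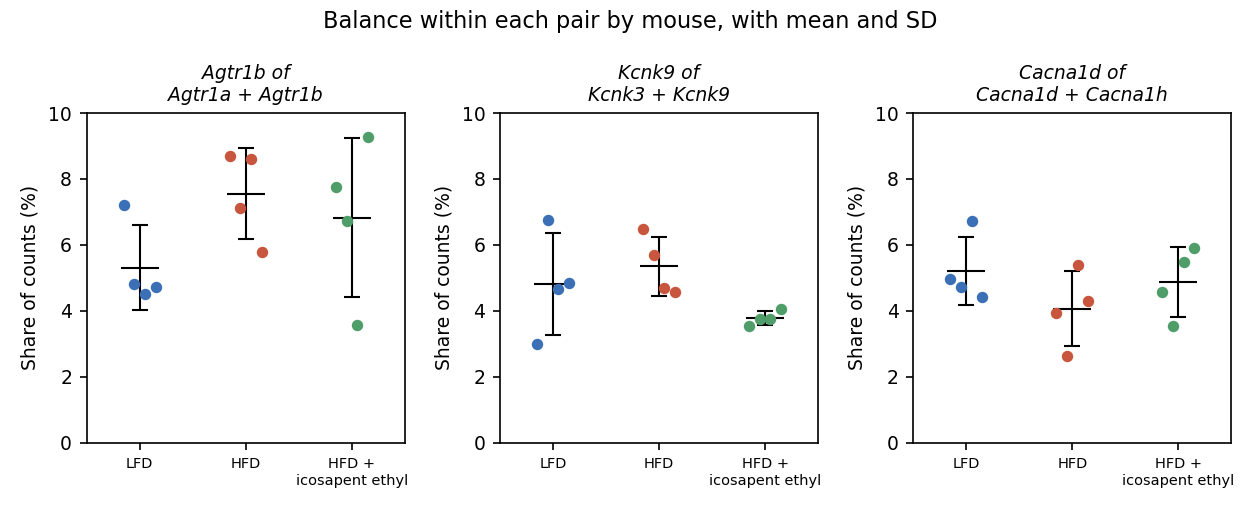
Share of the counts of each pair that came from the scarcer gene, in percent, with 1 point per mouse and the mean and SD (4 mice per group) as bars. The *Kcnk9* share of all icosapent ethyl–treated mice (3.55% to 4.06%) lies below that of all HFD mice (4.56% to 6.47%).

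The 9 genes did not vary as 1 block across mice. Over the 36 pairs of genes, Pearson's r of log2 CPM over the 12 mice ranged from -0.437 to 0.763, and 20 pairs were above 0. The receptor *Agtr1a* and the adaptor *Dab2* varied together (r = 0.759, permutation p = 0.00473, Spearman's rho = 0.692, permutation p = 0.0155), with r = 0.765 for deviations from the group means and 0.643 without the 2 mice farthest from the median of *Agtr1a*. *Kcnj5* and *Cacna1h* did so as well (r = 0.763, permutation p = 0.00555, rho = 0.692, permutation p = 0.015), with r = 0.787 for deviations and 0.628 without the 2 farthest mice. *Kcnk9* and *Atp2b3* had r = 0.708 (permutation p = 0.0147) but rho = 0.448 (permutation p = 0.148), and r was 0.418 without the 2 farthest mice, so the linear relation rested on these. With 108 relations computed in this family, the adjusted p was 0.12 for the first pairs, 0.227 for the last, and not below 0.105 for any.

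The genes were also set against markers of the zones and cell types of the gland. For each list, the log2 CPM of its markers was averaged, so that every marker weighed the same. These means are not the summed CPM given elsewhere. *Kcnk3* had r = -0.677 with the *zona glomerulosa* markers (permutation p = 0.0137, adjusted 0.227, rho = -0.734, permutation p = 0.009) and r = 0.791 with the *zona fasciculata* markers (permutation p = 0.00206, adjusted 0.105, rho = 0.734, permutation p = 0.00894). Within groups, as deviations from the group means, these were -0.453 and 0.686, and without the 2 farthest mice they were -0.754 and 0.799. *Kcnk3* also had r = -0.786 with the chromaffin markers (permutation p = 0.00191, adjusted 0.105, rho = -0.825, permutation p = 0.00169) and r = -0.802 with those of capsule and stroma (permutation p = 0.00293, adjusted 0.105, rho = -0.692, permutation p = 0.016), with -0.746 and -0.579 without the 2 farthest mice. Among the genes followed, *Kcnj5* had the highest r with the *zona glomerulosa* markers (0.644, permutation p = 0.0257, adjusted 0.278, rho = 0.531, permutation p = 0.0788). It was 0.847 for deviations from the group means and 0.431 without the 2 farthest mice. *Cacna1h* had r = 0.451 (permutation p = 0.141, rho = 0.357, permutation p = 0.255) with the same markers but 0.783 for deviations from the group means. For the other 6 genes, r with these markers lay between -0.303 and 0.174. The relations of *Kcnj5* were not particular to these markers. With the *zona fasciculata* markers it had r = -0.61 (permutation p = 0.0362, adjusted 0.326, rho = -0.692, permutation p = 0.015). This r was -0.782 for deviations from the group means and -0.691 without the 2 farthest mice. *Kcnj5* had r = 0.568 with the mural markers. With those of capsule and stroma r was 0.394, and 0.81 without the 2 farthest mice. *Cacna1d* had r = 0.673 with the chromaffin markers (permutation p = 0.0176, adjusted 0.238, rho = 0.587, permutation p = 0.0494), with 0.634 for deviations from the group means and 0.402 without the 2 farthest mice. The part of chromaffin RNA in its counts was not tested.

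**Figure D5:**
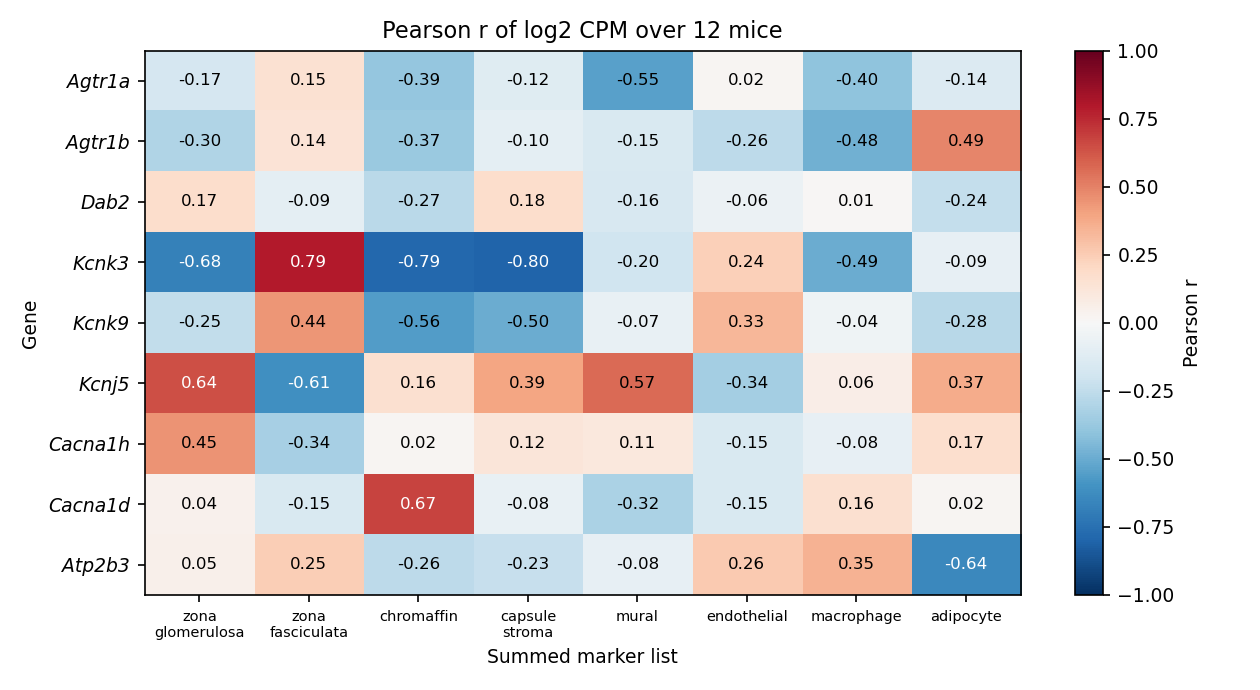
Pearson's r over the 12 mice between log2 CPM of each gene (rows) and the mean log2 CPM of the markers of 8 cell types or zones (columns). The axis label calls these lists summed, but the values are means of log2 CPM. *Kcnk3* has the strongest values, 0.79 with *zona fasciculata* and -0.80 with capsule and stroma, and no value has an adjusted p below 0.05.

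Several marker lists leaned in 1 direction between the groups, although few single markers passed the threshold. Over all genes tested for HFD versus LFD mice, edgeR called 1.45%, 24.8% had an unadjusted p below 0.05, and DESeq2 called 12.7%. Of the 8 *zona glomerulosa* markers, 7 had a lower mean in HFD than in LFD mice (median log2 fold change -0.43), and 0 passed the threshold in edgeR or DESeq2 (1 at an unadjusted p below 0.05). The exception was *Cyp11b2*, at 345 ± 115 CPM in HFD and 278 ± 37.4 CPM in LFD mice (0.30, SE 0.20, adjusted p 0.387), which was 0.047 without HFD replicate 2 (514 CPM, against 267 to 320.3 CPM in the other HFD mice). *Hsd3b6* was at 68.8 and 121 CPM (-0.83), *Vsnl1* at 46.1 and 60.1 (-0.39), *Shh* at 65.8 and 132 (-1.01), *Wnt4* at 154 and 177 (-0.20), *Oca2* at 13.5 and 17.97 (-0.42), *Lef1* at 3.54 and 5.36 (-0.60), and *Ccn3* at 0.706 and 0.952 CPM (-0.44). All 8 *zona fasciculata* markers had a higher mean in HFD than in LFD mice (median 0.59, 0 called by edgeR, 5 at an unadjusted p below 0.05, 3 called by DESeq2). All 12 chromaffin markers had a lower one (median -1.28, with 0, 8, and 6 by the same criteria), as had all 8 markers of capsule and stroma (median -0.44, with 0, 4, and 3). Of 9 macrophage markers, 7 had a lower and 2 a higher mean in HFD than in LFD mice (median -0.63). Of these, 4 fell in edgeR, with log2 fold changes of -1.25 for *Cd68*, -0.74 for *C1qa*, -0.80 for *C1qc*, and -0.96 for *Lyz2*. All 4 calls were lost without HFD replicate 2, 3, or 4 or LFD replicate 5, 6, or 7 (edgeR adjusted p up to 0.121). Each of those fits called 0 of all genes, so this loss is not particular to these markers. The markers with a higher mean were *Cd163* (0.11, adjusted p 0.87) and *Mrc1* (0.24, adjusted p 0.488), and these macrophage genes are named after their values were seen. The part of these cell types in the values of *Agtr1b* and *Kcnk3* was not tested. Between icosapent ethyl–treated and HFD mice, where *Kcnk9* came nearest to the threshold, the median was 0.58 for chromaffin, -0.14 for *zona fasciculata*, and -0.024 for *zona glomerulosa* markers, and 0 of these were called by edgeR or DESeq2 (0, 0, and 1 at an unadjusted p below 0.05, against 1.39% of all genes). For icosapent ethyl–treated versus LFD mice, medians were -0.37 for *zona glomerulosa* (7 of 8 lower) and 0.41 for *zona fasciculata* (8 of 8 higher). They were -0.72 for chromaffin (12 of 12 lower) and -0.52 for macrophage markers (8 of 9 lower). Capsule and stroma had -0.41 (8 of 8 lower). EdgeR called 0 of these. In that order, DESeq2 called 1 (*Hsd3b6*), 0, 0, 4, and 1, against 2.96% of all genes. At an unadjusted p below 0.05 there were 2, 3, 1, 5, and 3, against 14.0%. The mural, endothelial, and adipocyte lists had 0 calls by edgeR in all 3 comparisons (3, 1, and 3 genes at an unadjusted p below 0.05 and 2, 0, and 3 called by DESeq2 for HFD versus LFD mice), and both X-zone markers stayed below 1 CPM in all mice. *Hsd3b6* and *Cyp11b2* share 7.61% and 14.2% of their 75-base runs with other genes, among them *Hsd3b2* and *Cyp11b1*, so their counts are less certain.

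Around the receptor, edgeR called 1 regulator between the diets, and DESeq2 called more genes. Of 14 genes of the renin-angiotensin system, 13 were tested. In edgeR, 1 rose in HFD versus LFD mice and 0 fell (median -0.18), and 6 had an unadjusted p below 0.05. DESeq2 called 5. Over all 15909 genes tested, edgeR called 1.45%, 24.8% had an unadjusted p below 0.05, and DESeq2 called 12.7%. The gene that rose, *Agtrap*, encodes a protein that binds the type 1 receptor and promotes its internalization. It was at 117, 140.5, 130.1, and 139 CPM in LFD mice and 168, 174, 180.3, and 199 CPM in HFD mice, without overlap, as was the case in the same direction for 7.71% of all genes. The log2 fold change was 0.45 (SE 0.082, adjusted p 0.0438), and over 14 other settings the adjusted p ran from 0.00103 to 0.137 and missed the threshold in 9. These included the fits without HFD replicate 2, 3, or 4 or LFD replicate 5, 6, or 7, which called 0 of all genes. Icosapent ethyl–treated mice (169, 152, 171, and 193 CPM) had 0.38 against LFD (adjusted p 0.211) and -0.074 against HFD mice. Angiotensinogen (*Agt*) was at 1.31 ± 0.213 CPM in HFD and 2.42 ± 0.596 CPM in LFD mice (-0.88, adjusted p 0.0807), and renin (*Ren1*) at 1.08 ± 0.130 and 2.11 ± 0.692 CPM (-0.99, adjusted p 0.0816). Neither passed in edgeR, and both passed in DESeq2 (adjusted p 0.0107 and 0.0094).

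Downstream of the receptor, 26 of 26 genes of Gq and calcium signalling were tested. In edgeR, 1 rose in HFD versus LFD mice and 0 fell (median -0.074). At an unadjusted p below 0.05 there were 12, against 24.8% of all genes, and DESeq2 called 6, against 12.7%. *Camk2d*, a calcium- and calmodulin-dependent kinase, rose from 92.1 ± 7.58 to 128 ± 9.41 CPM (0.47, SE 0.086, adjusted p 0.0435), and every HFD mouse was above every LFD mouse, as for 7.71% of all genes. Over 14 other settings, its adjusted p ran from 0.000469 to 0.135 and missed the threshold in 8. Among these were the fits without HFD replicate 2, 3, or 4 or LFD replicate 5, 6, or 7, which called 0 of all genes. The related *Camk2b* was at 28.8 CPM in HFD and 55.3 CPM in LFD mice (-0.95, edgeR adjusted p 0.0612), and the upstream kinase *Camkk2* at 29.5 and 20.0 CPM (0.55, edgeR adjusted p 0.0626). DESeq2 called both (adjusted p 0.00207 and 0.00561). Among 27 other channels and pumps, 25 were tested and 0 passed in edgeR for HFD versus LFD mice (11 at an unadjusted p below 0.05 and 4 in DESeq2, against 24.8% and 12.7% of all genes, median -0.19). The smallest p-values there belonged to the potassium channel subunit *Kcnmb1* (0.643 and 0.218 CPM in HFD and LFD mice, 1.55, adjusted p 0.0911), the sodium pump subunit *Atp1b1* (53.2 and 108 CPM, -1.03, adjusted p 0.0933), and the adhesion molecule *Cadm1* (45.6 and 70.7 CPM, -0.64, adjusted p 0.0942), and DESeq2 gave 0.0285, 0.0128, and 0.022 for them. Against HFD mice, 0 genes of the 3 lists passed in icosapent ethyl–treated mice in edgeR or DESeq2, and 0 had an unadjusted p below 0.05 (1.39% of all genes did). Against LFD mice, 0 passed in edgeR, and 1 of the renin-angiotensin list (*Agtrap*) passed in DESeq2, against 2.96% of all genes. At an unadjusted p below 0.05 there were 1, 8, and 4 genes of the lists, against 14.0% of all genes.

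For each of the 9 genes, the genes most like it over the 12 mice were found by Pearson's r of log2 CPM among 13458 genes, as a description. They were *Ppm1d* (0.810) and *Gm2a* (0.809) for *Agtr1a*, *Rprd1b* (0.921) and *Yeats4* (0.916) for *Agtr1b*, and *Pgm5* (0.868) and *Mettl22* (0.839) for *Dab2*. For the potassium channels, they were *Gid4* (0.977) and *Hmgxb3* (0.955) for *Kcnk3*, *Pcdhb21* (0.924) and *Kctd17* (0.904) for *Kcnk9*, and *Srl* (0.971) and *Sun1* (0.964) for *Kcnj5*. For the calcium channels and the pump, they were *Ctc1* (0.906) and *Pacs1* (0.893) for *Cacna1h*, *Cdh22* (0.920) and *Mtcl1* (0.919) for *Cacna1d*, and *Sqor* (0.887) and *B3glct* (0.879) for *Atp2b3*. The likeness of *Kcnj5* and *Srl* was as high without the 2 farthest mice (0.987), whereas that of *Agtr1a* and *Gm2a* was 0.130. *Pcdhb21* shares 8.96% of its 75-base runs with other genes and overlaps *Pcdhb22* on the same strand, so its counts are less certain. No gene was among the most alike of more than 1 of the 9.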

How the data were processed

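RNA of the adrenal cortex of 12 mice was sequenced from stranded total RNA libraries. The deposited files held unnormalized counts per gene. For these, the authors trimmed reads with cutadapt, aligned them with STAR to GRCm38, and counted them on GENCODE M12 with HTSeq 0.6.1p1 in reverse-strand mode at a minimum alignment quality of 20. The study calls the libraries paired-end and the reads single. Symbols and coordinates came from GENCODE M21 for 49326 of 49585 genes. Groups came from the labels, which give no batch or date.

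The quasi-likelihood test of edgeR 4.0.16 (R 4.3.3) was fitted robustly to the 8 mice of each comparison with no covariate, after TMM scaling and filterByExpr (minimum count 10), with Benjamini-Hochberg adjustment over all genes and a threshold of 0.05. SEs and 95% intervals came from that fit. The p-values of the group comparisons set a difference against the spread between these mice. Shares were compared by exact permutation tests and correlations of log2 CPM (prior count 2) by 100000 permutations. The latter shuffled all 12 mice without regard to group, so p-values of correlations mix group differences with the spread within groups. The alternatives were DESeq2 1.42.0, its size factors, library totals, 2 other filters, all 12 mice in 1 fit, leaving out each mouse, and the replicate number as a block. Deviations of same-numbered HFD and icosapent ethyl–treated mice correlated at 0.240, 0.116, 0.340, and 0.632, all above 0.1, so the numbers were treated as pairs there, although mice with different numbers reached 0.598 and the labels do not say what a number denotes. LFD mice share only the number 2 with the other groups. No library was a copy of another (66 pairs, lowest chi-square per degree of freedom 26.0).

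The fits were tested on simulated data in which 195, 194, and 195 genes were changed 2-fold. At the threshold, 50.3% were recovered for HFD versus LFD mice, with 5 false calls. For icosapent ethyl–treated mice, 35.6% were recovered against HFD mice and 50.8% against LFD mice, with 5 and 12 false calls. With no change simulated, 0 genes were called. A gene that misses the threshold can therefore still have changed, and smaller changes were not simulated. Few genes were changed in the simulations, and the spread put into them was estimated without TMM scaling. In the real HFD versus LFD data, 24.8% of genes had an unadjusted p below 0.05 in edgeR. The recovered percentages need not hold for the real fits. The 9 genes and all lists were chosen with earlier results of these data known. Named beside them were list genes past the threshold (otherwise those with the smallest p up to 3 per pathway list), the *zona glomerulosa* markers, and the 2 genes with the highest r for each of the 9 (mean of at least 1 CPM).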

Additional observations from a re-analysis of the deposited data

Results flagged for a closer look

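In 114 groups of 4 mice, the gap between the highest or lowest mouse and its nearest neighbour was divided by the range of the group and set against the 95% critical value of Dixon's test, which chance exceeds in about 1 in 20 groups. It was exceeded 6 times. In LFD mice, *Agtr1b* of replicate 2 stood apart at 21.05 CPM, and so did its *Agtr1b* share of 7.217%, which rests on the same counts. *Cacna1h* of LFD replicate 5 stood apart at 306.4 CPM, *Cyp11b2* of LFD replicate 7 at 333.8 CPM, and *Atp2b3* of HFD replicate 1 at 114.1 CPM. In icosapent ethyl–treated mice, the summed macrophage markers of replicate 2 stood apart at 697.0 CPM. No cause was tested.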

How the results depend on the processing

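Of the 9 genes, 0 passed the threshold in any comparison under every alternative except the one without LFD replicate 2, where 1 (*Agtr1b*) passed for HFD versus LFD mice, so that leaving out each mouse gave 0 to 1. Over all genes, the count for HFD versus LFD mice was 230, against 2019 with DESeq2, 556 with all 12 mice in 1 fit, and 84 with library totals. Leaving out single mice gave 0 to 918 (HFD replicate 1 gave 918, LFD replicate 2 gave 78, and each of the other 6 gave 0). For icosapent ethyl–treated versus HFD mice it was 0, and 6 with DESeq2. For icosapent ethyl–treated versus LFD mice it was 0, against 471 with DESeq2, 2 with all 12 mice in 1 fit, and 0 to 1 without single mice. The replicate block for icosapent ethyl–treated versus HFD mice called 0 genes and 0 of the 9, gave -0.53 for *Kcnk9*, and changed no call. Pairing by exact sign flips was added after seeing the data. It leaves the 3 share differences unchanged by arithmetic (-0.726, -1.57, and 0.809 percentage points for *Agtr1b*, *Kcnk9*, and *Cacna1d*), so their agreement tests nothing. The adjusted sign-flip p was 0.625, 0.188, and 0.188 in that order, and 4 pairs cannot reach the threshold. No paired analysis was possible for the comparisons with LFD mice because they share only the number 2. The cause of these shifts was not tested.

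Among the 9 genes, log2 fold changes near 0 changed sign with library totals (*Dab2* -0.078 for HFD versus LFD mice, *Kcnk3* 0.041 for icosapent ethyl–treated versus HFD mice).

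Leaving out single mice also moved values near 0 across it. The log2 fold change of *Dab2* ranged from -0.077 to 0.10 for HFD versus LFD mice, from -0.22 to 0.018 for icosapent ethyl–treated versus HFD mice, and from -0.20 to 0.038 for icosapent ethyl–treated versus LFD mice, and that of *Kcnj5* from -0.15 to 0.66, from -0.48 to 0.33, and from -0.085 to 0.47 in the same order. It ranged from -0.21 to 0.076 for *Atp2b3* in HFD versus LFD mice. For icosapent ethyl–treated versus HFD mice, it ranged from -0.085 to 0.062 for *Kcnk3* and from -0.017 to 0.25 for *Cacna1d*. For icosapent ethyl–treated versus LFD mice, it ranged from -0.10 to 0.11 for *Agtr1a*, from -0.058 to 0.17 for *Cacna1h*, from -0.22 to 0.023 for *Cacna1d*, and from -0.33 to 0.16 for *Kcnk9*. Of the shares, *Agtr1b* ranged from -1.54 to 0.358 percentage points for icosapent ethyl–treated versus HFD mice, *Kcnk9* from -0.0754 to 1.19 for HFD versus LFD mice (below 0 without LFD replicate 2), and *Cacna1d* from -0.685 to 0.164 for icosapent ethyl–treated versus LFD mice, and the other 6 share differences kept their sign. The *Kcnk9* share difference between icosapent ethyl–treated and HFD mice ranged from -1.84 to -1.2. With 4 mice per group, intervals of the log2 fold change were widest for *Kcnj5*, the gene with the fewest counts.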
